A study of Homo sapiens and Mus musculus with 61 samples.

Results

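The regions within 1 Mb of the chromosome ends were taken from 17 tables that compare biotinylated dCas9 occupancy under a beta-globin guide with that under the control guide sgGal4. A region counted as subtelomeric where its centre lay within 1 Mb of either end of chromosomes 1 to 22 of hg19; chr16:100000-250000, which holds the alpha-globin genes, was left out. The rule used position only and found 3865 of the 143198 regions listed over all tables, against 139333 other regions. The 3865 regions were 2629 distinct intervals that merged into 1113 loci on 39 chromosome ends, the 39 that have assembled sequence within 1 Mb. At the edge of the window, the last region inside lay 999634 bp from an end near RNF223 with a log2 ratio of 1.43 in the sgHS2-sg2 table, and the first outside lay at 1000344 bp near SLC16A3 with -0.72 in the sgHS1 table.

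All libraries came from K562, a human chronic myeloid leukaemia line with an erythroid character, and all cells carried catalytically inactive Cas9 with a biotin tag, which was captured on streptavidin beads together with the DNA it occupied. The guides were sgHS1, sgHS2, sgHS3, sgHS4 and sgHS5 to the hypersensitive sites of the beta-globin locus control region, sgHBB and sgHBG to globin promoters, sgHBD-1kb upstream of HBD, sg3'HS1 to the downstream site, second guides named -sg2 for HS1 to HS5, HBB and HBG, and the pool sgHS1-5. Each guide had 1 to 6 libraries, 42 in all, and every table used the same 4 libraries of sgGal4, a non-targeting guide. The tables hold no expression values, so the identity of the cells was not checked. Since all comparisons share the sgGal4 libraries, they are not independent of each other.

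Subtelomeres lie between the telomere repeat TTAGGG and the unique part of a chromosome arm. They are rich in genes and in segments copied between the ends of different chromosomes, among them the olfactory receptor genes of the OR4F group and the FRG2 and DUX4 families. Reads from copied segments cannot be placed by sequence alone, and dCas9 can also be held at sites that match only the guide bases next to the PAM.

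The sequences below carry the main results for sgHBG. The first pair are 300-base regions from a GC-rich tandem repeat listed at 6 places with sgHBG, one at an end where no 31-base word is found once in GRCh37 and one where 13.3% of words are. The chromosome 6 region was identical to itself when moved by 68 bases. Capitals mark bases covered by 31-base words that all 6 copies hold.
chr6:171022175-171022474, plus strand: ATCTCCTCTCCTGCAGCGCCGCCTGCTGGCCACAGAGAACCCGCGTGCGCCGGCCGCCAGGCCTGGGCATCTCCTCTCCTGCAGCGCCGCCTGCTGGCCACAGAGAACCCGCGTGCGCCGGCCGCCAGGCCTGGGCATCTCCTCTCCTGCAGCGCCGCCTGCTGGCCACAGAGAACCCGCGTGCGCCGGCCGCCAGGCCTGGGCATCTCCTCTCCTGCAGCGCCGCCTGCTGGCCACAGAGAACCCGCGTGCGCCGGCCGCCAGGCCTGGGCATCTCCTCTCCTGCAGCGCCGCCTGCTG
chr17:81153478-81153777, plus strand: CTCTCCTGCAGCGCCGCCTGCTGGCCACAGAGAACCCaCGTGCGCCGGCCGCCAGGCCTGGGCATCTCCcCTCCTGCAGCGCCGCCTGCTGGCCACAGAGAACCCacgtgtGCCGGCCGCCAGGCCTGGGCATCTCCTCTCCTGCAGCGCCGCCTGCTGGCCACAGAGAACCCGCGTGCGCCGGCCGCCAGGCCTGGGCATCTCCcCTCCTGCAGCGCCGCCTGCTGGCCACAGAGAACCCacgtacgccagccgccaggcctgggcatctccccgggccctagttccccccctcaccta
The next region is 1 of 13 copies of a block with a median GC content of 44%, again with capitals for bases covered by 31-base words in all copies.
chr6:170928478-170928777, plus strand: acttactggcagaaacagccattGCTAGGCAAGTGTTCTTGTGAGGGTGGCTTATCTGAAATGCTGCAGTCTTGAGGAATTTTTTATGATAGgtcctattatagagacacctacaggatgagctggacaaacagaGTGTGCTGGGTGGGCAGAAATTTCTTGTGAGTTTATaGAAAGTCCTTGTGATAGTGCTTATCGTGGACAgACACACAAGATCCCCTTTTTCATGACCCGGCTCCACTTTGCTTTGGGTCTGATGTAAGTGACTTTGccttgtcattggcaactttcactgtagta
The last set shows a single-copy region near PDGFA on its minus strand, and the stretch of the HBG1 and HBG2 on-target regions that it resembles. The guide sequences were not in the sources used here. The stretch is the longest match among 39 stretches next to a PAM that both on-target regions hold. It need not be the guide site. Capitals mark a run of 12 bases shared next to a PAM and the GG of that PAM; the stretch near PDGFA differed from the on-target one at 5 of 20 bases.
chr7:521509-521808, minus strand: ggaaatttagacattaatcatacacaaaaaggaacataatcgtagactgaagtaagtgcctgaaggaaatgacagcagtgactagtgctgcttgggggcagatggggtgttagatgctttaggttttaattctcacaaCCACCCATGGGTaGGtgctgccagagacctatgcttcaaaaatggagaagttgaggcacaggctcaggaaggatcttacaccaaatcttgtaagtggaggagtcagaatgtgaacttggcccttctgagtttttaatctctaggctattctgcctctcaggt
HBG1, chr11:5271218-5271240, and HBG2, chr11:5276142-5276164, minus strand: gctaaactCCACCCATGGGTtGG
near PDGFA, chr7:521656-521678, minus strand: tctcacaaCCACCCATGGGTaGG

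The chromosome ends were listed often, and a larger share of their intervals lay at promoters, though most did not. There were 105.9 regions per Mb of end sequence against 51.9 per Mb elsewhere on the autosomes, a ratio of 2.04, and 17.2 protein-coding transcription starts per Mb against 7.02, a ratio of 2.44. Distinct subtelomeric intervals had a median GC content of 65.3% against 57.3% in other intervals, and 7 against 3.33 CpG per 100 bp. A promoter, within 1000 bp of a protein-coding start, was hit by 44.1% of subtelomeric and 36.0% of other intervals. The median distance to such a start was 2344 bp against 7472 bp. Fewer than 50% of the 31-base words were unique, here called duplicated sequence, in 5.29% of subtelomeric and 1.07% of other intervals. The telomere hexamer TTAGGG, on either strand, was present in 6.54% of subtelomeric intervals and 9.82% of other intervals, with at most 2 copies, and 0 subtelomeric intervals held it in tandem. The regions thus lie near the ends but hold no telomere repeat array.

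Levels are the authors' log2 values per library. For the ratio, levels were averaged on the linear scale within each group, and the guide average was divided by the sgGal4 average and put on the log2 scale. A region was called higher or lower with a ratio of at least 1 or at most -1 and an adjusted p under 0.05 in limma, fitted on the whole of each table. Over all tables, 110 of 3865 subtelomeric regions (2.85%) were called higher, against 1.66% of all regions, and 235 (6.08%) were called lower, against 11.2% of all regions. The median ratio was 0.20. These totals leaned on the sgGal4 libraries. The higher count was 63 without sgGal4 replicate 1, 173 without replicate 3 and 175 without replicate 4, and the lower count was 123 without replicate 1 and 152 without replicate 2. Calls over all regions moved too. In the sgHBG table, 336 of all regions were called higher, 137 without sgGal4 replicate 1 and 590 without replicate 3.

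The sgHBG guide, aimed at the promoters of the fetal globin genes HBG1 and HBG2, gave the highest count. With sgHBG 48 of 246 subtelomeric regions (19.5%) were called higher, against 4.94% of all regions of the table, and 12 (4.88%) were called lower, against 12.8%. The lower count was 23 without sgHBG replicate 2, 6 without replicate 1, 3 without replicate 3 and 2 without replicate 4. Of these 48 regions, 45 were duplicated sequence and 28 had 0 reads in every sgGal4 library. The higher count was 31 without sgHBG replicate 3, 29 without sgHBG replicate 4 and 2 among regions with at least 90% unique words, a limit chosen after the values were seen. Duplicated subtelomeric regions, 66 in all, had a median ratio of 2.33 and unique ones of 0.04. Elsewhere in this table, 272 duplicated regions had a median of 1.52, and unique regions of -0.26.

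The GC-rich tandem repeat was called higher at all 6 listed places with sgHBG, in every fit that left out 1 library. In the copy on chromosome 6, listed 92743 bp from the end and nearest to PDCD2, sgHBG replicates 1 to 4 had 89, 24, 97 and 179 reads, against 0 reads in each of the 4 sgGal4 libraries. Every sgHBG library was above every sgGal4 library. The ratio was 5.06, with an adjusted p of 0.004646 in limma. The copies near OR4F16 (chr1:544764-545063) and OR4F3 (chr5:180864287-180864586) had ratios of 4.86 and 4.45 with adjusted p of 0.005416 and 0.007767 in limma. The OR4F genes encode olfactory receptors. The copy on chromosome 17, 101633 bp from the start of METRNL, a secreted factor gene, held partly unique sequence and was the one with reads in sgGal4. It had 91, 27, 111 and 167 reads with sgHBG, against 4, 9, 1 and 0 with sgGal4, and a ratio of 4.08. The same repeat was listed at 6 places with sgHS3-sg2, where ratios were 2.18 to 3.64 and 5 of 6 were called higher; the highest, again on chromosome 6, had 73 reads in the single guide library and 0 in each sgGal4 library. With 1 guide library, these calls take its spread from sgGal4, and 1 of the 5 held without each sgGal4 library in turn. In the other 15 tables the repeat was listed 18 times, with ratios of -2.44 to 1.19, 14 of them below 0. All 15 listed the chromosome 17 copy, and most listed only that copy, so the values below 0 come mainly from 1 interval. A second place was listed with sgHBG-sg2 (ratios of the 2 places 0.20 and 1.17), sgHS1-sg2 (-0.87 and 0.43) and sgHS4-sg2 (-0.65 and 1.19). None of the 18 was called higher, and the chromosome 17 copy was called lower with sgHBD-1kb (-1.88).

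**Figure D1:**
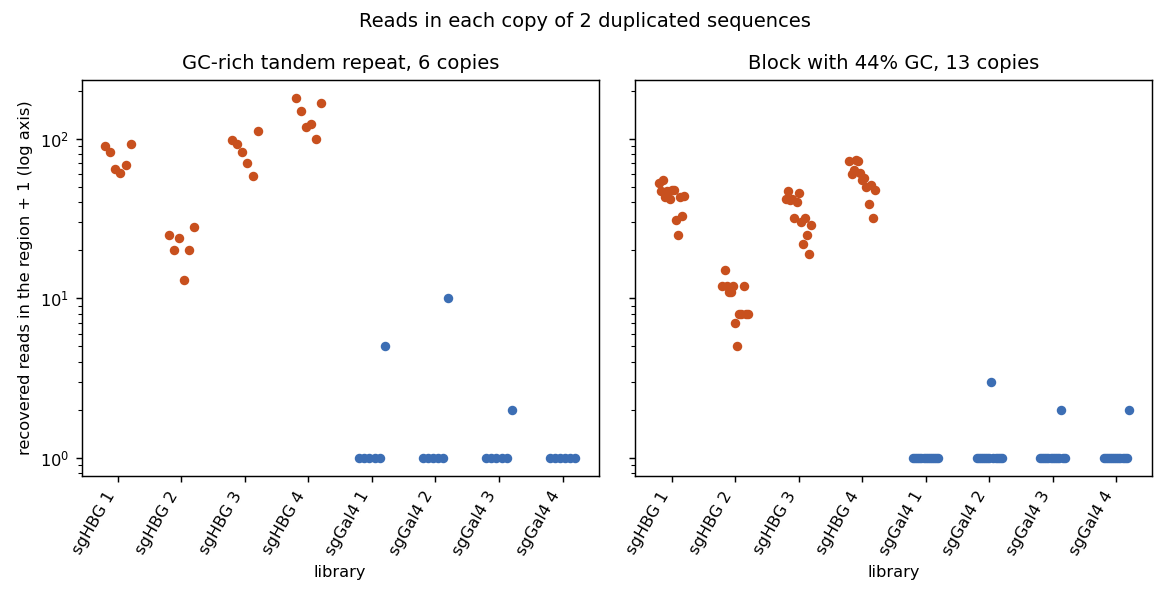
Recovered reads plus 1, on a log axis, in each copy (points) of the GC-rich tandem repeat and of the block with 44% GC, for sgHBG replicates 1 to 4 and sgGal4 replicates 1 to 4. The 6 repeat copies hold 12 to 179 reads with sgHBG and 0 to 9 with sgGal4, and the 13 block copies hold 4 to 73 with sgHBG and 0 to 2 with sgGal4.

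The block with 44% GC was listed with sgHBG alone, at 13 places on 10 ends between 85808 and 642105 bp from the end. All 13 were called higher, with ratios of 2.97 to 3.93, and 10 of the 13 had 0 reads in every sgGal4 library. The listing rule is not given, so places may have been listed through their sgHBG reads. The share called is thus no independent support. The same limit holds for the GC-rich repeat, where 5 of the 6 copies with sgHBG had 0 sgGal4 reads. Summed over the 13 copies, sgHBG replicates 1 to 4 had 546, 116, 434 and 723 reads, against 0, 2, 1 and 1 in sgGal4 replicates 1 to 4. The libraries of the groups were far apart. The copies share at least 71.1% of their 31-base words with the chromosome 6 copy, so their counts are not separate measurements. Another set of 11 related loci on 10 ends was called higher at 7 of the 8 places listed with sgHBG, 11070 to 189715 bp from the ends. Its highest ratio, 3.50, was nearest OR4F4 on the long arm of chromosome 15.

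Subtelomeric regions without any unique 31-base word were listed in 3 of the 17 tables. Of 37 such regions, 25 were in the sgHBG table, 10 in that of sgHS3-sg2 and 2 in that of sgHBG-sg2. Guide libraries held 3768 reads there in all, against 2 reads in the sgGal4 libraries. Per the labels, reads that aligned to exactly one location were kept. Whether the libraries of these 3 guides were aligned with the same settings as the sgGal4 libraries was not tested, and the duplicated calls are given with that limit. Among the 45 duplicated regions called higher with sgHBG, 21 had no unique word of 31 bases and 19 none of 75 bases; the read length is not given in the sources used here. Over all listed regions, the 4 sgHBG libraries placed 10.7% to 20.3% of their listed reads in duplicated sequence, against 1.09% to 1.445% for sgGal4 in that table. The sgHBG-sg2 libraries placed 9.86% and 13.1%, against 0.39% to 0.763% for sgGal4, and the sgHS3-sg2 library 6.22%, against 0.512% to 0.796%. In the other 14 tables, guide libraries placed 0.0936% to 1.075% and sgGal4 libraries 0.17% to 0.685%. The part of read placement in these calls was not tested.

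**Figure D2:**
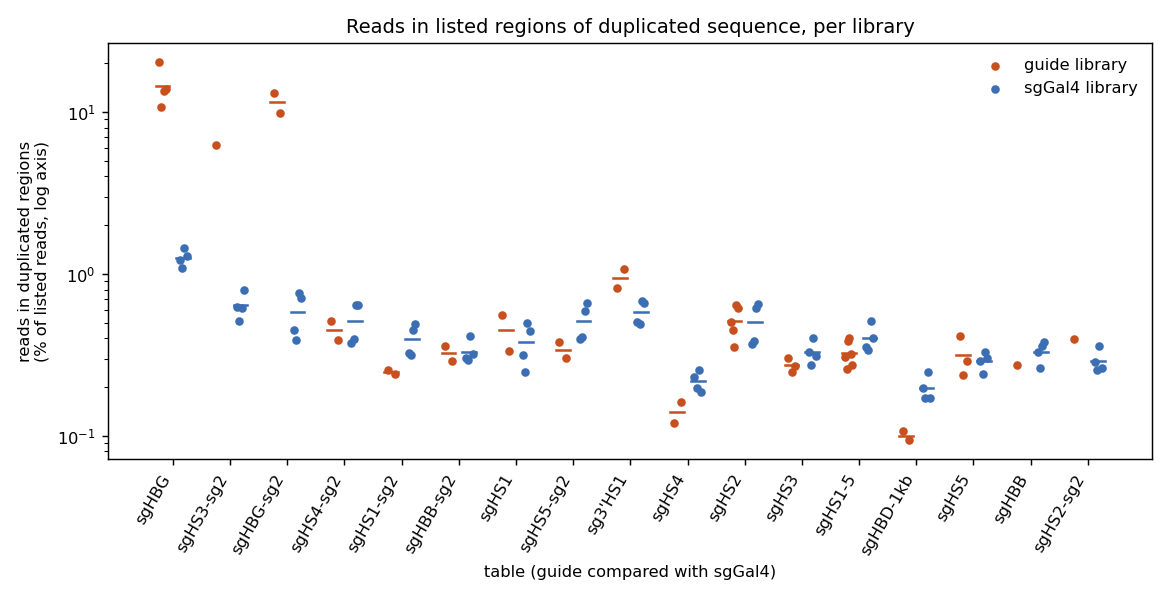
Percent of listed reads in regions with under 50% unique 31-base words (log axis) for each guide library and each sgGal4 library (points; bars are means), by table. The libraries of sgHBG, sgHBG-sg2 and sgHS3-sg2 stand at 6.22% to 20.3%, while all other guide libraries lie at or under 1.075%.

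Calls with sgHBG lay toward the very ends. Within 100 kb of the end, 15 of 24 regions were called higher, with a median ratio of 2.62, and 66.7% of the 24 were duplicated. Between 100 and 250 kb it was 13 of 29, and from 250 to 500 kb 10 of 65. From 500 to 750 kb it was 6 of 81 and from 750 to 1000 kb 4 of 47, where 17% were duplicated. With sgHS3-sg2, 5 of 24 regions within 100 kb were called higher, and 62.5% of those 24 were duplicated. Over all tables, 22 of 232 regions within 100 kb and 17 of 839 beyond 750 kb were called higher. Distance and duplication moved together. With sgHBG, all 15 regions called higher within 100 kb were duplicated. The other regions there had ratios of -1.07 (near FAM110C) to 1.58 (near PRDM7). The region near PRDM7 held 0% unique words and had an adjusted p of 0.0642 in limma. The remaining ones reached at most 1.07 (near UBE2M). Beyond 500 kb, some duplicated regions were still called higher, such as those near OR4F16 (3.72) and NRARP (2.35). Others there were not, such as one near PHRF1 (1.01), and the unique regions near PDGFA and FOXK2 were called. The separate parts of distance and duplication were not tested.

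**Figure D3:**
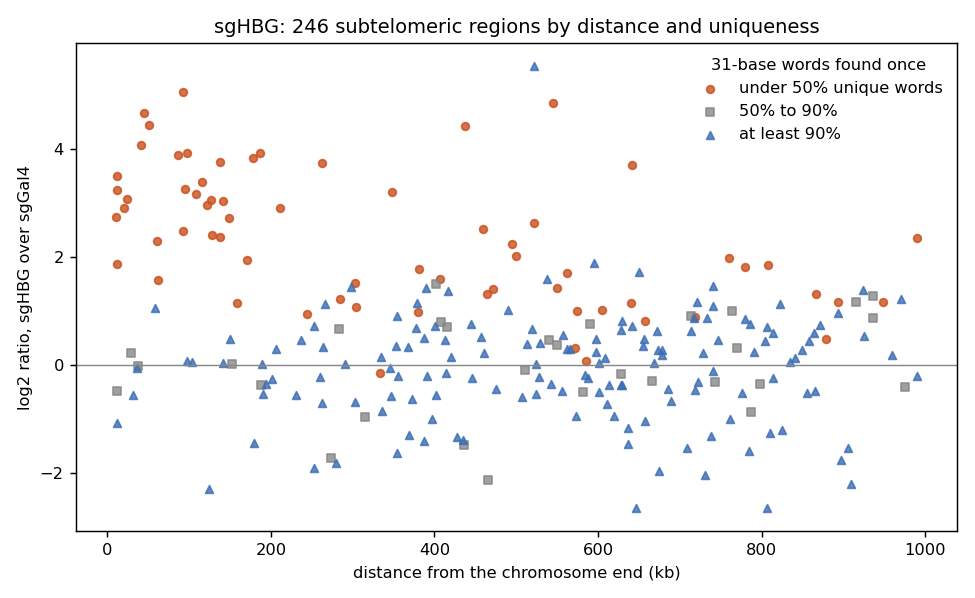
Log2 ratio of sgHBG over sgGal4 against the distance from the chromosome end in kb for 246 subtelomeric regions, coloured by the share of 31-base words found once in the reference. Duplicated regions (circles) have a median of 2.33 and make up 66.7% of the regions within 100 kb, and unique regions (triangles) have a median of 0.04, with 1 at 5.55.

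The highest subtelomeric region of any table was single-copy sequence. It was the interval printed above, 36487 bp from the start of PDGFA, the gene of the platelet-derived growth factor A chain. It had 243, 22, 98 and 173 reads in sgHBG replicates 1 to 4, against 0 reads in each of the 4 sgGal4 libraries. All 4 sgHBG libraries were above all sgGal4 libraries. The ratio was 5.55, and the limma difference of mean log2 levels was 6.25 ± 0.87 (SE), with an adjusted p of 0.004646, and the call held in all 8 fits that left out 1 library. A run of at least 12 bases shared next to a PAM was found in 20 of 6806 off-target regions of the sgHBG table (0.294%), and in 1 of its 246 subtelomeric regions, this one. The other unique region called higher with sgHBG was in an intron of FOXK2, a forkhead factor gene, with 14, 2, 10 and 42 reads with sgHBG, against 6, 3, 0 and 0 with sgGal4. The groups overlapped in reads. The ratio was 1.72, with an adjusted p of 0.0415 in limma, and the call held in 3 of 8 fits that left out 1 library.

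With sgHS4, the highest subtelomeric region lay in an intron of DYNC2I1, a ciliary dynein gene, at chr7:158679846-158680145. It had 264 and 98 reads with sgHS4, against 0, 0, 1 and 0 with sgGal4. Both guide libraries were above all sgGal4 libraries. The ratio of 4.51 did not pass the test, with an adjusted p of 0.168 in limma. The region shares 14 bases next to a PAM with the sgHS4 on-target region. This is the longest match to any of 41 stretches next to a PAM there, and the HS4 stretch need not be the guide site. Capitals below mark the shared bases and the GG of the PAM, and the stretches differ at 4 of 20 bases.
HS4, chr11:5309558-5309580, minus strand: cccactCAGCAGCTATGAGAtGG
near DYNC2I1, chr7:158679980-158680002, plus strand: atcagaCAGCAGCTATGAGAgGG
Shared runs of at least 12 bases were also found in 2 subtelomeric regions with sgHS2-sg2, near MZF1 and TMEM18, and in 1 with sgHBB, near TRIM52. None of these 3 was called, with ratios of 1.27, 2.74 and 1.53. Such runs were in 216 of 8572 off-target regions (2.52%) of the sgHS2-sg2 table. The 1 subtelomeric region that the authors tag, in an intron of GALNT9 with sgHS4, had 51 and 6 reads with sgHS4, against 0 in every sgGal4 library, and a ratio of 2.48 with an adjusted p of 0.211 in limma.

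The other tables gave fewer higher calls. With sgHBD-1kb 27 of 256 regions (10.5%) were called higher, against 9.45% of all regions of the table, and with sgHS3 10 of 205 (4.88%), against 6.44%. Both shares were near those of all regions. The sgHBD-1kb count was 0 without either of its 2 libraries, and the sgHS3 count was 0 without any 1 of its 3. With sgHS3-sg2 it was 8 of 190 (4.21%), against 1.13%, and 7 of the 8 were duplicated; with sgHBG-sg2 6 of 200 (3%), against 0.926%, and 4 of the 6 were duplicated. Percentages in brackets are again those of all regions. The counts were 4 of 178 with sgHS4-sg2 (0.529% of all regions), 2 of 149 with sgHBB-sg2 (0.517%) and 2 of 277 with sgHS1-sg2 (0.53%). They were 1 of 121 with sgHBB (4.24%), 1 of 172 with sgHS2-sg2 (1.13%) and 1 of 197 with sgHS5-sg2 (0.52%). Left without either guide library, the sgHBG-sg2 count was 1, and those of sgHS4-sg2, sgHBB-sg2, sgHS1-sg2 and sgHS5-sg2 were 0. The sgHS3-sg2 count was 3 without sgGal4 replicate 1, and the sgHS2-sg2 call was lost without any 1 sgGal4 library. Over all tables, 32 of the 110 higher calls held in every fit of their table that left out 1 library, 28 of them with sgHBG.

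No subtelomeric region was called higher by limma in 6 tables, which called 0.0533% of all regions with the pool sgHS1-5, 0.0187% with sg3'HS1, 0% with sgHS5, 0.00932% with sgHS4, 0.0192% with sgHS2 and 0.0474% with sgHS1. At an unadjusted limma p under 0.05 and a ratio of at least 1, there were 71 of 423 subtelomeric regions with sgHS1-5, or 16.8% against 17.4% of all regions at the same limit. With sg3'HS1 there were 49 of 286 (17.1%), against 14.9% of all regions, and with sgHS5 26 of 383 (6.79%), against 6.83%. With sgHS4 there were 17 of 308 (5.52%), against 5.42%, with sgHS2 10 of 151 (6.62%), against 4.49%, and with sgHS1 2 of 123 (1.63%), against 0.569%. These shares lay near those of all regions, those of sgHS2 and sgHS1 resting on few regions. Without 1 library, sgHS1-5 gave up to 34 higher calls (without sgGal4 replicate 3) and sg3'HS1 up to 13 (without its own replicate 2). The highest regions in these tables were still far from 0. ARID3A, which encodes a DNA-binding factor, had an intron region with 138 and 22 reads with sg3'HS1, against 1, 3, 0 and 1 with sgGal4, and a ratio of 4.18. FBRSL1 had an intron region with 235, 42 and 25 reads with sgHS5, against 5, 5, 0 and 0 with sgGal4, and a ratio of 4.69. Both sets of guide libraries lay above the sgGal4 libraries, but the adjusted p was 0.059 and 0.148 in limma.

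Loci differed in how many tables listed them. Of 1113 loci, 98 were listed in all 17 tables, 609 in 1 table and 338 in at least 3. The 98 loci held 233 of the 235 lower calls and 3 of the 110 higher calls, with a median ratio of -0.81, and median sgGal4 reads of 10 and 15 in replicates 1 and 2. The 609 loci of 1 table had 43 higher and 0 lower calls, a median ratio of 0.93 and median sgGal4 reads of 2 and 3. The 406 loci of 2 to 16 tables, with 1590 regions, held most of the higher calls, 64, and 2 lower calls, with a median ratio of 0.69 and median sgGal4 reads of 3 and 6. The rule by which the authors listed a region is not given in the sources used here, and its part in these directions was not tested.

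The start of GAS8, a gene for a subunit of the motile cilium's regulatory complex, had the highest mean ratio among loci in at least 3 tables. It was listed in 11 tables at chr16:90088810-90089206, with a mean ratio of 2.55 and an SD of 1.15 over tables, and was called higher in 5. With sgHBD-1kb it had 115 and 70 reads, against 1, 12, 0 and 1 with sgGal4. The ratio was 4.13, and the limma difference was 4.31 ± 0.64 (SE, adjusted p 0.01103), a call that was lost without either sgHBD-1kb library. The calls with sgHS1-sg2 and sgHS3 were lost without any 1 of their guide libraries and that with sgHS2-sg2 without any 1 sgGal4 library. The call with sgHS3-sg2, at a ratio of 3.50 from 1 guide library, held without each sgGal4 library in turn. With the pool sgHS1-5 the 6 libraries had 183, 297, 2, 2, 40 and 63 reads, against 1, 12, 0 and 1 with sgGal4. The pool libraries overlapped sgGal4 in reads, which are not adjusted for depth. The ratio of 3.47, taken from the levels, did not pass, with an adjusted p of 0.12 in limma. With sgHS5 the ratio was 0.25.

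RNF225, a RING finger gene on chromosome 19, was called higher in each of the 4 tables that listed its coding exon. With sgHBG-sg2 it had 10 and 27 reads, against 3, 3, 0 and 0 with sgGal4, and a ratio of 2.29. With sgHS4-sg2 it had 14 and 22 reads, against 2, 2, 0 and 0 with sgGal4, and a ratio of 2.20. The guide libraries lay above the sgGal4 libraries in both. None of the 4 calls held in every fit that left out 1 library. ZNF8 had 68 and 50 reads with sgHBD-1kb, against 2, 4, 0 and 0 with sgGal4, a ratio of 4.05 and an adjusted p of 0.01103 in limma, a call lost without either guide library. Its other 5 tables gave 0.95 to 1.60, without a call. An intron of ANKRD11, which encodes a chromatin regulator, had 44 and 35 reads with sgHBD-1kb, against 0, 0, 1 and 0 with sgGal4, and a ratio of 3.55, called higher unless 1 of the 2 guide libraries was left out. The other loci with a high mean lay near PRDM7 (2.33), ZFTRAF1 (2.13), DOCK8 (2.01), DIP2A (1.85), CHSY1 (1.78) and LRRK1 (1.75), each in 3 tables, as mean log2 ratios.

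**Figure D4:**
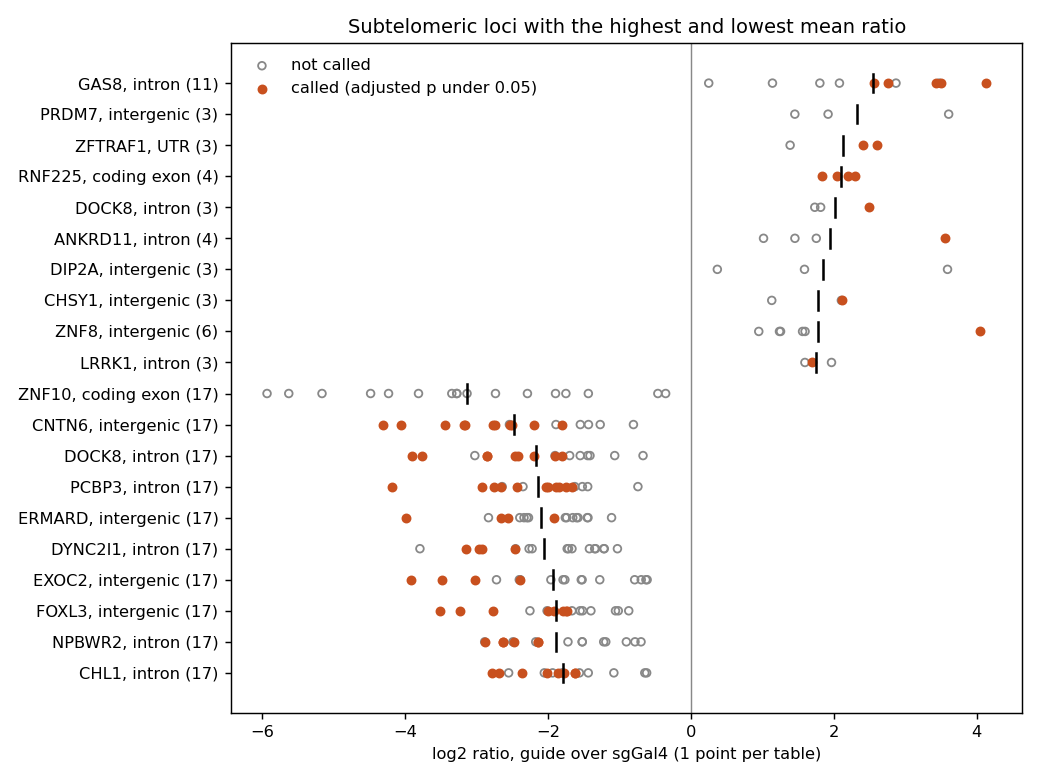
Log2 ratio of guide over sgGal4 in each table (points) for the 10 loci with the highest and the 10 with the lowest mean among loci in at least 3 tables, labelled by nearest gene, with the number of tables in brackets; filled points were called, and bars mark the mean. GAS8 has a mean of 2.55 and CNTN6 of -2.48, and ZNF10 reaches -5.93 without a call.

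The lowest mean belonged to a coding exon of ZNF10 at chr12:133727526-133727837, listed in all 17 tables. ZNF10 encodes a zinc finger protein whose KRAB domain is widely used in synthetic repressors. Its mean ratio was -3.13, with a lowest value of -5.93 with sgHS5, and it was called in 0 tables, the lowest adjusted p being 0.0872 in limma. The sgHS5 libraries had 2, 0 and 0 reads, against 4, 2, 53 and 4 in sgGal4 replicates 1 to 4. One sgGal4 library, replicate 3, held most of the reads. Of 42 guide libraries, 5 had over 10 reads there, up to 61 in sgHS3 replicate 2.

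An intergenic region nearest to CNTN6, a neural adhesion gene, at chr3:909219-909518 was called lower in 11 tables. Guide libraries had 0 to 10 reads, with a median of 1, against 13, 13, 2 and 3 with sgGal4. An intron of PCBP3, an RNA-binding protein gene, was also called lower in 11 tables. Guide libraries there had 0 to 8 reads, with a median of 1, against 10, 16, 1 and 3 with sgGal4. Replicates 1 and 2 of sgGal4 were high in both, and replicates 3 and 4 lay within the guide range in reads, which are not adjusted for depth. The mean ratios were -2.48 and -2.14. Of the 11 calls at each, 2 held in every fit of their table that left out 1 library. The lowest called value was near CFAP97D2 with sgHBB, where the single guide library had 0 reads, against 12, 22, 0 and 4 with sgGal4, and the ratio was -4.31. The guide value lay within the range of sgGal4 in reads but not in levels. In this comparison 0 reads stood at a level of 0 in the sgHBB library and of 3.10 in sgGal4 replicate 3. The part of this gap in the call was not tested, and the call takes the spread of the lone guide library from sgGal4. The other loci with a low mean lay near DOCK8, ERMARD, DYNC2I1, EXOC2, FOXL3, NPBWR2 and CHL1, with means of -2.17 to -1.79 and lower calls in 4 to 9 of 17 tables.

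Lower calls stayed below the share of all regions in each table that had any. Percentages in brackets are those of all regions. They were 40 of 121 regions with sgHBB (37% of all regions), 42 of 256 with sgHBD-1kb (18.7%), 24 of 190 with sgHS3-sg2 (31.1%), 20 of 172 with sgHS2-sg2 (13.5%) and 20 of 197 with sgHS5-sg2 (19.2%). They were 18 of 200 with sgHBG-sg2 (22.4%), 17 of 149 with sgHBB-sg2 (29%), 13 of 178 with sgHS4-sg2 (21.9%), 13 of 205 with sgHS3 (9.76%), 9 of 277 with sgHS1-sg2 (11.9%) and 7 of 123 with sgHS1 (18.5%). The remaining 5 tables had no lower call over any region. At an unadjusted limma p under 0.05 and a ratio of at most -1, subtelomeric regions there numbered 25 of 383 with sgHS5 (6.53%, against 8.81% of all regions at that limit), 23 of 286 with sg3'HS1 (8.04%, against 15.3%) and 19 of 151 with sgHS2 (12.6%, against 20.4%). They numbered 13 of 308 with sgHS4 (4.22%, against 10.2%) and 5 of 423 with sgHS1-5 (1.18%, against 3.88%). Lower calls were lost in 8 of the 12 tables when 1 library was left out. They were 0 with sgHBD-1kb without either of its libraries, 0 with sgHS3 without any 1 of its libraries, 0 without replicate 1 of sgHBB-sg2, sgHS1-sg2, sgHS4-sg2, sgHS5-sg2 or sgHS1, and 0 with sgHS2-sg2 or sgHS1 without any 1 sgGal4 library. With sgHBG-sg2 they were 7 without its replicate 2, and with sgHS3-sg2 12 without sgGal4 replicate 1. Over all tables, 41 of 235 lower calls held in every such fit of their table, 25 of them with sgHBB, whose single guide library could not be left out.

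The 10 loci with the highest mean among the 98 in every table sat near 0. The start of ZBTB45, a zinc finger gene, averaged 0.19, the start of CIAO3, an iron-sulphur protein assembly gene, 0.16, and a region near RNH1, the ribonuclease inhibitor gene, 0.08, all as log2 ratios over 17 tables. Regions at SELENOS, SLC27A5, CFD, ZNF512B, CPSF1 and IQCG averaged 0.01 to -0.13. Of the 10 loci in this set, 1 was called in any table, a CPSF1 region called lower in 1. The 5 loci with most hexamers, with 2 copies each, lay near LYPD8, ZNF251, TCF25, SLC52A3 and IFITM3, with mean ratios of 0.63 to 1.62 and 1 higher call, at LYPD8.

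Gene groups of the chromosome ends were compared by nearest gene. The duplicated families, OR4F, FRG2, DUX4 and TUBB8 genes, had 49 regions over all tables, of which 17 (34.7%) were called higher, 14 of them with sgHBG, and 0 lower, against 2.85% higher and 6.08% lower among all subtelomeric regions. Their median ratio was 1.17 and 55.1% were duplicated. Most of the 17 were copies of the repeat, the block or the related loci described above, so they are not a separate result. Block copies nearest to OR4F29, for example, lay 20021 and 105577 bp from its start. At FRG2 the highest ratio was 2.91 with sgHBG (adjusted p 0.0144 in limma), and at DUX4, an early embryonic transcription factor gene, the single region had 1.15 with sgHBG without a call. Genes reported to respond to telomere length, ISG15, BET1L, DUX4, FRG1 and FRG2, had 47 regions, 1 higher call (2.13%, near the 2.85% of all subtelomeric regions), 0 lower calls, and a median ratio of 0.58. Among regions nearest to 6 interferon-related genes, 2 of 12 were called higher, IRF7 at 2.08 with sgHS3 and IFITM3 at 2.37 with sgHBG-sg2, and 0 lower, with a median of 1.13 against 0.20 for all subtelomeric regions. The IRF7 call held in 2 of 7 fits that left out 1 library and the IFITM3 call in 2 of 6, and none of the 31-base words of the IFITM3 region was unique. ISG15 is in both lists.

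The zinc finger genes, a large part of the chromosome 19 end, had 371 regions near 43 genes, with 6 higher and 6 lower calls (1.62% each) and a median ratio of 0.19. Among all subtelomeric regions 2.85% were called higher and 6.08% lower, and among all regions 1.66% and 11.2%. With sgHS3, ZNF140 reached 3.35, ZNF251 2.76, ZNF552 2.37 and ZNF497 1.90, all called higher as log2 ratios. At ZNF140 the sgHS3 libraries had 23, 41 and 58 reads, against 3, 7, 0 and 1 with sgGal4, and did not overlap them. All 4 of these calls were lost when any 1 of the 3 sgHS3 libraries was left out, since that table then called 0 subtelomeric regions higher. Genome maintenance genes had 18 regions with 1 higher (5.56%) and 0 lower calls. The call was nearest to FANCA, a Fanconi anaemia gene, 22619 bp from its start, at 2.24 with sgHBG. The region was duplicated sequence, with 49.6% unique words, and the call was lost without sgHBG replicate 3 or 4. Chromatin genes had 83 regions near 7 genes with 1 higher call, at TRIM28 with sgHBD-1kb (1.71), and 10 lower calls, all at EHMT1, a histone H3 lysine 9 methyltransferase gene, down to -3.88 with the single library of sgHS2-sg2. The higher share was 1.20% and the lower share 12.05%. The TRIM28 call was lost without either sgHBD-1kb library and without sgGal4 replicate 1, 2 or 3, and none of the 10 EHMT1 calls held in every fit that left out 1 library. BRD9 had no region.

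Per library, the mean log2 level of subtelomeric regions less that of the other regions was compared between guide and sgGal4. With sgHBG this difference was 0.46, 0.40, 0.61 and 0.65 in replicates 1 to 4, against -0.60, -0.77, -0.19 and -0.19 with sgGal4. The groups did not overlap. The means were 0.53 ± 0.12 with sgHBG and -0.44 ± 0.30 with sgGal4 (SD, n = 4 each), a gap of 0.97 with p = 0.0286 in an exact two-sided permutation test, the smallest p that 4 against 4 libraries allow. Adjusted over the 17 tables it was 0.227. Of the 66 duplicated subtelomeric regions with sgHBG, 62.1% to 83.3% had 0 reads in each sgGal4 library. The listing rule is not given, and regions may have been listed through their guide reads. The gaps and shares of reads given here are thus no independent support. In 14 of the 17 tables the libraries are too few for any p under 0.05: the smallest possible p was 0.4 with 1 guide library, 0.133 with 2 and 0.0571 with 3. With sgHS2, the means were 0.16 ± 0.10 with the guide (SD, n = 5) and -0.04 ± 0.02 with sgGal4 (SD, n = 4), a gap of 0.20 with an exact permutation p of 0.0159, also adjusted to 0.227. The share of listed reads in subtelomeric regions was 4.83% to 5.58% with sgHBG, against 2.70% to 3.12% with sgGal4.

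In the other tables the gap between guide and sgGal4 was 0.75 with sgHS3-sg2, 0.59 with sgHBG-sg2, 0.56 with sgHS4-sg2, 0.48 with sgHS1-sg2, 0.41 with sgHBB-sg2 and with sgHS1, and 0.36 with sgHS5-sg2. It was 0.26 with sg3'HS1, 0.23 with sgHS4, 0.08 with sgHS3, 0.02 with sgHS1-5, 0.00 with sgHBD-1kb and -0.03 with sgHS5. It was -0.32 with sgHBB and -0.35 with sgHS2-sg2. The gaps with sgHS3-sg2, sgHBB and sgHS2-sg2 rest on 1 guide library each. Among unique regions only, the gap with sgHBG was 0.26. Among regions of at least 60% GC, the gap was 0.48 with sgHBG and below 0 in 11 of 17 tables, and among promoter regions it was 0.11 with sgHBG and below 0 in 10 of 17 tables, against 3 of 17 for all regions. The GC split was chosen after the values were seen.

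**Figure D5:**
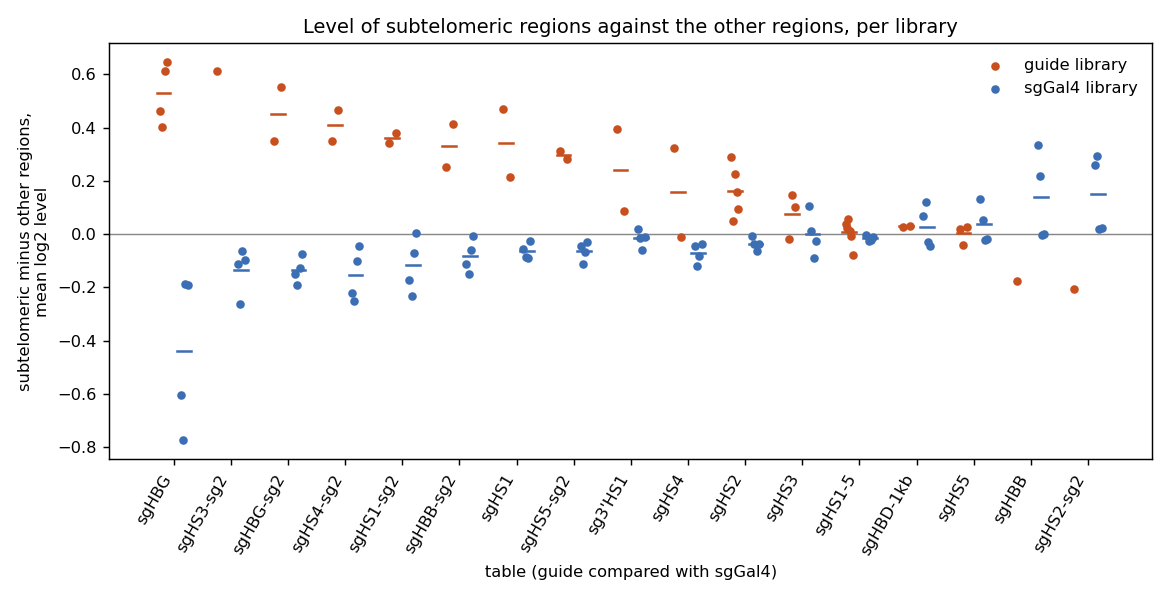
Mean log2 level of subtelomeric regions less that of the other regions of the table for each guide library and each sgGal4 library (points; bars are means), by table in order of the gap. The sgHBG libraries lie at 0.40 to 0.65 and the sgGal4 libraries of that table at -0.77 to -0.19, while the groups overlap with sgHBD-1kb, sgHS1-5, sgHS3 and sgHS5.

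The ends differed in their values. The end of the short arm of chromosome 3, with 37 regions at 5 loci, had the lowest median ratio, -1.89, with 19 lower and 0 higher calls. Of these 19, 11 were at CNTN6 and 8 at CHL1. Each is a single interval listed in all 17 tables against the same sgGal4 libraries, so these are repeated counts of few intervals. Over all tables, 1.66% of all regions were called higher and 11.2% lower. The end of the short arm of chromosome 10, with 22 regions at 13 loci, had the highest, 0.82, without a call. The short arm of chromosome 1 and the long arm of chromosome 17, with 15.5% and 14.2% duplicated regions, had 9 and 4 higher calls. The long arm of chromosome 19 held most regions, 262 at 49 loci, with 10 higher and 4 lower calls.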

How the data were processed

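The authors deposited 17 tables of 300 bp regions with log2 levels per library, their log2 ratio and mean (M and A) and a column marking target regions. The submitters' processing notes name hg19, Bowtie 1.0.0 and Picard, and reads aligned to exactly one location were kept, per the labels' protocols. Peak caller, listing rule and normalisation: not given in the sources used here.

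From these values M was recomputed, and whole reads were recovered from the steps of the log2 levels (100% of values whole within 0.01, or 0.01% of the level where that is larger). Guide libraries held 7127 to 432553 reads in listed regions, sgGal4 replicates 1 and 2 held 41128 to 169968, and replicates 3 and 4 held 6499 to 18647; these sums are not library depths. limma 3.58.1 in R 4.3.3 was fitted to each table, without a trend and with Benjamini-Hochberg adjustment over all its regions. A lone guide library was taken to vary like sgGal4. The tests were tried on simulated data. Replicates are numbered in the labels but not said to be separate cultures, so p-values measure only the spread between libraries. Annotation was GENCODE 44 lifted to GRCh37, whose primary assembly gave the sequences. Loci were merged where regions overlap by 1 bp, and families are loci sharing at least 10 words of 31 bases.

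Named were the 10 loci in most tables, the 10 highest and 10 lowest means among loci in at least 3 tables, the highest region of each table, the 5 highest and 5 lowest called, tagged regions and the 5 loci with most hexamers. Others, such as copies of a family, were chosen after their values were seen. The regions, lists and tests were chosen with earlier results of these data known, and the word-uniqueness, family, PAM-run and GC analyses were added after seeing the values. Of the 61 samples, those outside these tables were not analysed here. Alternatives are described at the end.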

Additional observations from a re-analysis of the deposited data

Results flagged for a closer look

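The share of listed reads in subtelomeric regions was 2.32% in sgGal4 replicate 4 of the sgHBD-1kb table, against 2.66% to 2.69% in the other 3 sgGal4 libraries, a gap large for the range of the group. The same library stood apart in the sgHS2-sg2 table, with 2.03% against 2.34% to 2.37%. These were 2 of 40 groups looked at, and chance alone marks about 1 in 20. It is 1 of the shallow sgGal4 libraries.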

How the results depend on the processing

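The count of higher calls over all tables, 110, was 169 with a 2 Mb window, 48 among unique members, 3 at a limma p of at most 1e-05, 991 with sgGal4 replicates 1 and 2 only and 61 with replicates 3 and 4 only. The count of lower calls, 235, was 102 with a 500 kb window, 486 with 2 Mb, 0 at that p, 56 and 40 on recovered reads with a pseudocount of 1 and 5, 371 with sgGal4 replicates 1 and 2 only and 131 with replicates 3 and 4 only. Leaving out 1 library at a time gave 63 to 175 higher and 123 to 260 lower calls. These counts are of subtelomeric regions alone, and calls over all regions moved as well. The windows and the unique set also hold other numbers of regions, so their counts are not shares. With sgHBG, 38 of 118 regions were called higher at 500 kb, 48 of 246 at 1 Mb, 65 of 476 at 2 Mb and 2 of 150 unique members. With sgGal4 replicates 1 and 2 only, the sgHS1-5 table called 153 of 423 subtelomeric regions higher, and 6169 of all 16890 regions. The sgHBG table called 92 of 246 and 1345 of all 6808. A rise in these counts is thus not an excess over all regions. Deviations of same-numbered guide and sgGal4 libraries had 36 correlations from -0.25 to 0.22. With as few as 2 pairs in a table, these cannot exclude a pairing or a shared batch. With a replicate block, in the 14 tables that allow it, 534 subtelomeric regions were called higher and 171 lower. The block keeps only libraries with matching numbers, so tables with 2 guide libraries lose sgGal4 replicates 3 and 4. With sgHBD-1kb it called 101 of 256 subtelomeric regions higher, and 4360 of all 9939. The higher count was 44 with sgHBG, and 0 with sgHS1-5 and with sgHS2, which keep all 4 sgGal4 libraries. The level gap kept its direction in 314 of 342 alternative values, in a design where 14 of 17 tables could not reach an unadjusted p of 0.05. It turned with sgHBD-1kb to -0.036 in a 500 kb window, to -0.066 with sgGal4 replicates 1 and 2 only and in the replicate block, to 0 for medians, to -0.215 in promoters, to -0.056 in other regions and to -0.359 at 60% GC or more, with -0.024 to 0.032 when leaving out 1 library. With sgHS1-5 it was -0.025 at 500 kb, 0 for medians, -0.065 in promoters and -0.106 at high GC. With sgHS5 it was 0.030 at 2 Mb and 0.023 with sgGal4 replicates 3 and 4 only. In promoters it was -0.0067 with sg3'HS1, -0.0033 with sgHBG-sg2, -0.119 with sgHS3, -0.107 with sgHS3-sg2 and -0.041 with sgHS5-sg2, and in other regions -0.029 with sgHS3. At high GC it was -0.106 with sg3'HS1, -0.067 with sgHBB-sg2, -0.011 with sgHS1-sg2, -0.174 with sgHS3, -0.032 with sgHS4 and -0.144 with sgHS5-sg2. The causes were not tested. sgGal4 replicates 3 and 4 held fewer reads than replicates 1 and 2, and the part of depth in the calls was not tested.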
